A study of Mus musculus with 7 samples.

Results

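The 8 genes described here, Ucp1, Cidea, Elovl3, Ppargc1a, Dio2, Cox8b, Cox7a1 and Prdm16, are known for their high expression in brown and beige fat. They were taken by symbol from the 23930 amplicons of a mouse transcriptome panel, on which each gene has 1 amplicon. RNA came from the contralateral mammary tissue, that is, from the gland on the side without the tumor, of 7 parous mice that had developed a mammary tumor. The 3 control mice (mice 1, 2 and 3) were Blg-Cre;Brca1f/f;Trp53+/-, and the 4 HMMRTg/Tg mice (mice 7, 8, 9 and 11) were Blg-Cre;HMMRTg/Tg;Brca1f/f;Trp53+/-. In both groups Cre, driven by the β-lactoglobulin promoter in mammary epithelium during lactation, deletes the floxed part of Brca1, and 1 functional copy of Trp53 is lacking. The HMMRTg/Tg mice also carry the human HMMR coding sequence in both copies of the Rosa26 locus, behind a stop signal that Cre removes. The mice were of mixed background and are labelled age-matched, although over the study's larger set of such mice the control group was on average somewhat older at collection. Fat cells lie outside the cells in which the Cre driver is active, and the RNA is of whole tissue sections, so that fewer cells of a type and less RNA per cell cannot be told apart.

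Brown adipocytes burn fatty acids and glucose to make heat, and beige adipocytes are similar cells that appear within white fat, including the fat pad in which the mammary gland lies. Ucp1 is the inner mitochondrial membrane protein that lets protons back into the matrix without making ATP, and it is the defining marker of both cell types. Cold and noradrenaline act through β-adrenergic receptors and cAMP to raise Ucp1, Dio2 and Ppargc1a. The other genes of the group are less restricted. Cox7a1 and Cox8b encode subunits of cytochrome c oxidase that are also made in skeletal and heart muscle, Cidea is also made in the lactating mammary epithelium, and Elovl3 is also made in the sebaceous gland and hair follicle of the skin. The levels of these other tissues are therefore given beside each gene.

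Promoter sequences were available for 6 of the 8 genes in a RefSeq table of GRCm38.p6, the assembly of mm10, and 4 are shown. Which sequence is marked in each was a choice and not a result, and the 6 CANNTG of Ppargc1a are not marked. Each runs 5′ to 3′ on the gene's own strand, from 250 bases before an annotated start of transcription to 50 bases after it. The Ppargc1a window lies inside the annotated span of that gene (chr5:51454249-52115853), and any start further upstream was not examined. For Ucp1 (chr8:83290098-83290397, plus strand), Dio2 (chr12:90738989-90739288, minus strand) and Ppargc1a (chr5:51567676-51567975, minus strand), capitals mark TGACG on either strand, the core of the cAMP response element. For Cox8b (chr7:140900397-140900696, minus strand), capitals mark CANNTG, the E box that muscle regulatory factors of the MyoD family and many other factors can bind.
Ucp1: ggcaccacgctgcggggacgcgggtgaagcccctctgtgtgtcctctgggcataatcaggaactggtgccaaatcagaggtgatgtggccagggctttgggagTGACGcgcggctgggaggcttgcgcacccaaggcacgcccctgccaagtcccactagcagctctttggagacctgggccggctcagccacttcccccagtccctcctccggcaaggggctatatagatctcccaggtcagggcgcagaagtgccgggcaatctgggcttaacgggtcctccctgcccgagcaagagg
Dio2: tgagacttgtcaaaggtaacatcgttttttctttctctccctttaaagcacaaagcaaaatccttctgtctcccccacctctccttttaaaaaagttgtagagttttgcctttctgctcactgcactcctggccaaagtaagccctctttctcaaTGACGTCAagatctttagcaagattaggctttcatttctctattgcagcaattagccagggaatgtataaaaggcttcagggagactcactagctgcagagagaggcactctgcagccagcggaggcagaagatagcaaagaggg
Ppargc1a: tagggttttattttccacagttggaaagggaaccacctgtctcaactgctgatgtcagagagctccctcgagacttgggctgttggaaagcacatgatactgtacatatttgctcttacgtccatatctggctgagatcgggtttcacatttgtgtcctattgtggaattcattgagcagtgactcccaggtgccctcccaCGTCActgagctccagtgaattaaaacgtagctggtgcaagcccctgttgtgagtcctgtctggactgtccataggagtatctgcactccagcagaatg
Cox8b: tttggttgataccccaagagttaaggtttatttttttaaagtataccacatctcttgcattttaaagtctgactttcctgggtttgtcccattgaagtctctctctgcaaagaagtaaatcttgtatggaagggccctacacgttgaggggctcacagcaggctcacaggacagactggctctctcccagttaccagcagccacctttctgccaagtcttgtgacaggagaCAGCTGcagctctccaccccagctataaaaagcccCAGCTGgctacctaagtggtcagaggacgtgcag
TGACG occurred once in the windows of Ucp1 and Ppargc1a, and at 2 overlapping places in that of Dio2, which together make the full palindrome TGACGTCA. Of the 32851 promoters in the table, 20.8% held TGACG on either strand and 1.79% held TGACGTCA. CANNTG occurred at 2 places in the Cox8b window, both of them CAGCTG, at 6 in that of Ppargc1a, and at 1 in each of those of Cox7a1 and Prdm16, and 72.3% of all promoters held it. These matches are descriptions of the letters and not of binding. The nuclear receptor sequence TNAAGGTCA, found in 1.28% of promoters, was in none of the 6 windows.

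The values are reads per 1e6 reads on the panel (RPM), and the whole reads behind them could be recovered. Total reads were 5532357 to 9345915 a mouse, and a count of 0 allows up to 3 reads, or 0.321 to 0.542 RPM, for counting error only. One amplicon is read per gene and no length correction applies, so levels are compared between mice and not between genes. Mouse Hmmr was read at 1.45, 4.09 and 3.39 RPM in control mice 1, 2 and 3, and at 11.4, 12.2, 2.43 and 6.19 RPM in HMMRTg/Tg mice 7, 8, 9 and 11, so that mouse 9 lay within the control range; whether the amplicon reads the human transgene was not tested. The epithelial marker Epcam was read at 1108 to 2430 RPM and the fat cell gene Cfd at 1666 to 9328 RPM over the 7 mice, so that both epithelium and fat were present in each section. The groups stood apart in skeletal muscle RNA, whose 25 measured markers summed to 2232 to 13340 RPM in the control mice and to 65.3 to 174 RPM in the HMMRTg/Tg mice.

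Genotypes were compared with limma on log2(RPM + 1). The test covered the 13080 genes that reached 1 RPM in 3 or more mice, with Benjamini-Hochberg adjustment over all of them. Fold changes are given on this log2 scale, with their standard errors (SE), and on it the change of a gene with few reads comes out too small. Of the 8 brown and beige fat genes, 6 passed the filter, and Ucp1 and Elovl3 did not. None of the 6 was called higher or lower at an adjusted p under 0.05 with limma, where 0.0382% of all genes were called higher and 0.367% lower. Before adjustment, 2 of the 6 had a p under 0.05 and were higher in the HMMRTg/Tg mice (6.49% of all genes), and none was lower (3.22% of all genes). The same 2 genes, Ppargc1a and Prdm16, were those whose groups did not overlap, against 6.52% of all genes with every HMMRTg/Tg mouse above every control mouse and 3.34% with every one below. The median log2 fold change of the 6 genes was −0.02, beside 0.11 over all genes tested, and 3 of the 6 values were positive. The count test of edgeR on the recovered reads called none of the 6, and DESeq2 called 1 of them higher, Ppargc1a, where it called 0.617% of all genes higher.

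**Figure D1:**
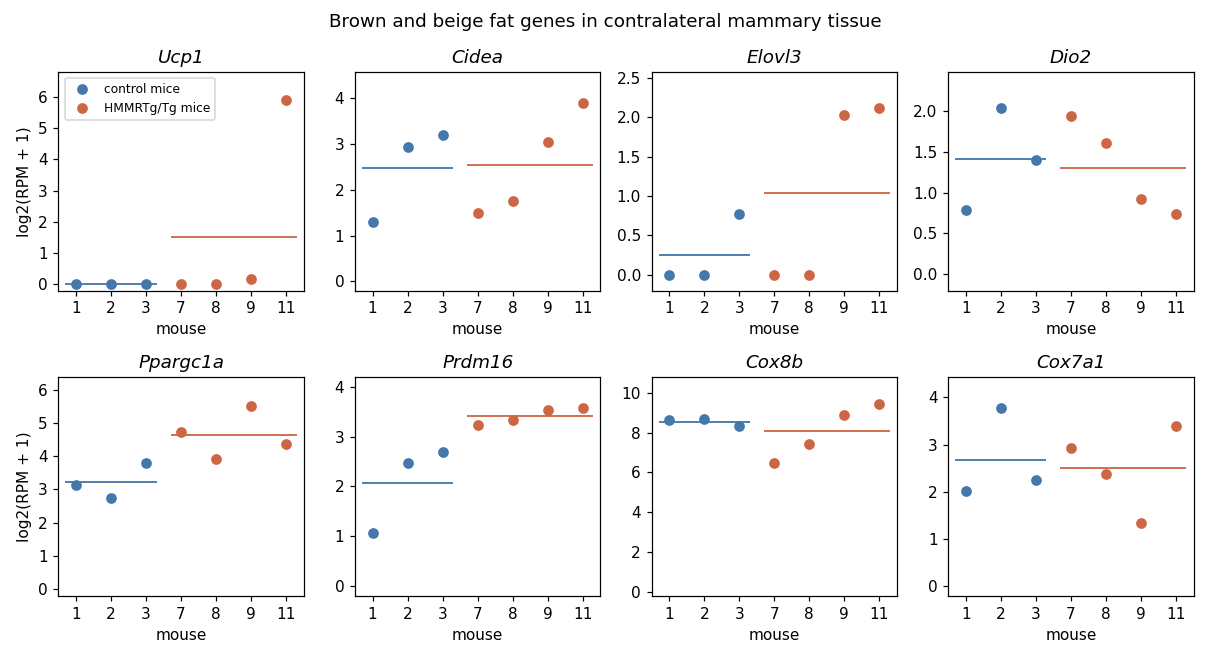
Level of each of the 8 genes in each mouse, as log2(RPM + 1) on the vertical axis, each panel with its own scale from 0. Points are single mice (control mice 1 to 3 in blue, HMMRTg/Tg mice 7 to 11 in orange) and lines are the group means. Ucp1 was read at 58.2 RPM in mouse 11 and at 0 or 1 read elsewhere, and Ppargc1a and Prdm16 are the genes whose groups do not overlap.

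Ucp1 had more than 1 read in a single mouse only. It had 0 reads in control mice 1, 2 and 3 and in HMMRTg/Tg mice 7 and 8, 1 read in mouse 9 (0.128 RPM) and 348 reads in mouse 11 (58.2 RPM, exact Poisson 95% interval 52.3 to 64.7). Each library at 0 was set at 3 reads for comparison. The level in mouse 11 was 107-, 176- and 166-fold that floor in control mice 1, 2 and 3, and 152- and 181-fold that floor in mice 7 and 8. These ratios leave out the counting error of mouse 11 itself. Against the single read of mouse 9 the ratio was 455, with a counting interval of 81.2 to 1.8e+04. Both genotypes thus held mice with no Ucp1 read, and the difference between groups rests on 1 of the 4 HMMRTg/Tg mice. Without the filter on low values, the log2 fold change was 1.52 (limma adjusted p = 0.861).

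Mouse 11, singled out after its values were seen, was also the highest of the 7 for Elovl3, Cidea, Cox8b and Prdm16. It was the highest for 3 of the 6 genes tested, and for 8.91% of all 13080 genes. Dio2, the deiodinase that turns thyroxine into active thyroid hormone inside brown adipocytes, was not high there. It was read at 0.723, 3.09 and 1.64 RPM in control mice 1, 2 and 3, and at 2.82, 2.03, 0.895 and 0.669 RPM in HMMRTg/Tg mice 7, 8, 9 and 11, which is 4 to 28 reads a mouse. The groups overlapped over nearly their whole range, and mouse 11, with 348 Ucp1 reads, had 4 of Dio2, as had control mouse 1. The mean was 1.82 ± 1.19 RPM (SD, n = 3) against 1.60 ± 1.01 RPM (SD, n = 4) (limma log2 fold change −0.11, SE 0.43, adjusted p = 0.959). The sign turned without control mouse 2 (0.21), mouse 9 (0.02) or mouse 11 (0.08).

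Ppargc1a and Prdm16 encode regulators of the brown fat program. Ppargc1a is the coactivator (PGC-1α) that raises mitochondrial and thermogenic genes, in fat as in muscle and other tissues, and Prdm16 is the zinc finger protein that directs cells to the brown and beige rather than the muscle or white fat program. Ppargc1a was read at 7.77, 5.74 and 13.0 RPM in control mice 1, 2 and 3, and at 25.4, 14.0, 44.8 and 19.7 RPM in HMMRTg/Tg mice 7, 8, 9 and 11. The lowest HMMRTg/Tg mouse, mouse 8, was just above the highest control mouse, mouse 3. The mean was 8.83 ± 3.73 RPM (SD, n = 3) against 26.0 ± 13.4 RPM (SD, n = 4). The limma log2 fold change was 1.40 (SE 0.40), with a p of 0.00561 before adjustment and an adjusted p of 0.274. DESeq2 gave 1.45 with an adjusted p of 0.0367, which passed the threshold, and edgeR 1.47 with an adjusted p of 0.240. Over 17 alternative settings the adjusted p lay between 0.0367 and 0.595, and DESeq2 was the 1 setting under 0.05.

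Prdm16 was read at 1.09, 4.53 and 5.50 RPM in control mice 1, 2 and 3, and at 8.45, 9.10, 10.6 and 10.9 RPM in HMMRTg/Tg mice 7, 8, 9 and 11. The 4 HMMRTg/Tg mice lay close together and all above the control mice. Control mouse 1, the library with the fewest reads in total (5532357), was the lowest with 6 reads of this gene. Mouse 11, with 5976449 reads in total, was the highest. The mean was 3.70 ± 2.32 RPM (SD, n = 3) against 9.76 ± 1.17 RPM (SD, n = 4). The limma log2 fold change was 1.35 (SE 0.41), with a p of 0.00822 before adjustment and an adjusted p of 0.311. The adjusted p was 0.370 in edgeR and 0.135 in DESeq2, and lay between 0.135 and 0.594 over 17 settings. Without control mouse 1 the log2 fold change was 0.84. The order of the mice differed between the regulators, since mouse 9 was the highest for Ppargc1a and mouse 11 for Prdm16.

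Elovl3 and Cidea act on lipid. Elovl3, the elongase that makes very long chain fatty acids and is strongly raised by cold in brown fat, was not read in control mice 1 and 2 nor in HMMRTg/Tg mice 7 and 8. It had 6 reads in control mouse 3 (0.702 RPM, exact Poisson 95% interval 0.258 to 1.53), 24 reads in mouse 9 (3.07 RPM, 1.97 to 4.57) and 20 reads in mouse 11 (3.35 RPM, 2.04 to 5.17). Mice 9 and 11 did not differ beyond counting error, and both lay above mouse 3. Each group held mice with 0 reads, and without the filter the log2 fold change was 0.78 (limma adjusted p = 0.861).

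Since Elovl3 is also a gene of skin glands and hair follicles, 16 markers of these were summed. The sums were 7.23, 7.28 and 102 RPM in control mice 1, 2 and 3, and 7.17, 6.96, 256 and 15.1 RPM in HMMRTg/Tg mice 7, 8, 9 and 11. The mice with Elovl3 reads, 3, 9 and 11, were thus the 3 with the highest sums. Krt79, a keratin of the sebaceous duct and upper hair follicle, supplied most of the sum in mice 3, 9 and 11 but not in the other 4. It was read at 1.99, 0.442 and 93.4 RPM in control mice 1, 2 and 3 and at 2.43, 2.78, 192 and 9.71 RPM in HMMRTg/Tg mice 7, 8, 9 and 11. Scd3, a desaturase of the sebaceous gland, was high in mouse 9 alone, at 26.0 RPM, with 0.702 to 2.18 RPM in the other 6 mice. Far2 was also highest in mouse 9, at 9.21 RPM, but lowest of the 7 in mouse 11, at 0.669 RPM. Mc5r was at 1.34 RPM in mouse 11, below control mice 1 (1.81 RPM) and 3 (1.87 RPM). Of the 16 markers, 4 passed the filter and 0 were called (limma, median log2 fold change 0.48), and Krt27 and Krt35 had 0 reads in all 4 HMMRTg/Tg mice. Mouse 11 had as much Elovl3 as mouse 9 with a far lower marker sum, and Ucp1 was at 1 and 0 reads in mice 9 and 3. The part of skin glands in the Elovl3 reads was not tested beyond these values.

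Cidea, the lipid droplet protein that fuses droplets in brown fat and acts in milk fat secretion in the lactating gland, was read in every mouse. Its level was 1.45, 6.62 and 8.07 RPM in control mice 1, 2 and 3, and 1.79, 2.35, 7.16 and 13.9 RPM in HMMRTg/Tg mice 7, 8, 9 and 11, from 8 to 83 reads. Each group held both low and high mice, and mouse 11 was the highest. The mean was 5.38 ± 3.48 RPM (SD, n = 3) against 6.30 ± 5.60 RPM (SD, n = 4), with a log2 fold change of 0.07 (SE 0.64, limma adjusted p = 0.982). The sign turned without control mouse 1 (−0.52), mouse 9 (−0.09) or mouse 11 (−0.38).

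Milk protein RNA was high in all 7 mice, and its order was not that of Cidea. The 5 caseins summed to 21027, 106074 and 6586 RPM in control mice 1, 2 and 3, and to 22609, 48425, 7768 and 74631 RPM in HMMRTg/Tg mice 7, 8, 9 and 11. Mice 3 and 9 had the lowest casein sums and, after mouse 11, the highest Cidea levels, whereas mice 2 and 11 were high for both. Of the 20 genes of the lactating epithelium 0 were called (limma, median log2 fold change 0.26). At a p under 0.05 there was 1 in each direction, beside 6.49% of all genes higher and 3.22% lower. These were Elf5, higher (log2 fold change 0.84, adjusted p = 0.424), and Glycam1, lower (−2.42, adjusted p = 0.477). Cidec, the relative of Cidea in white fat droplets, was highest in mouse 9 at 1981 RPM and lay between 433 and 808 RPM in the other 6 mice, and its log2 fold change was 0.40 (limma adjusted p = 0.810). Cideb, the liver and gut member of the family, had 0 to 5 reads a mouse.

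**Figure D2:**
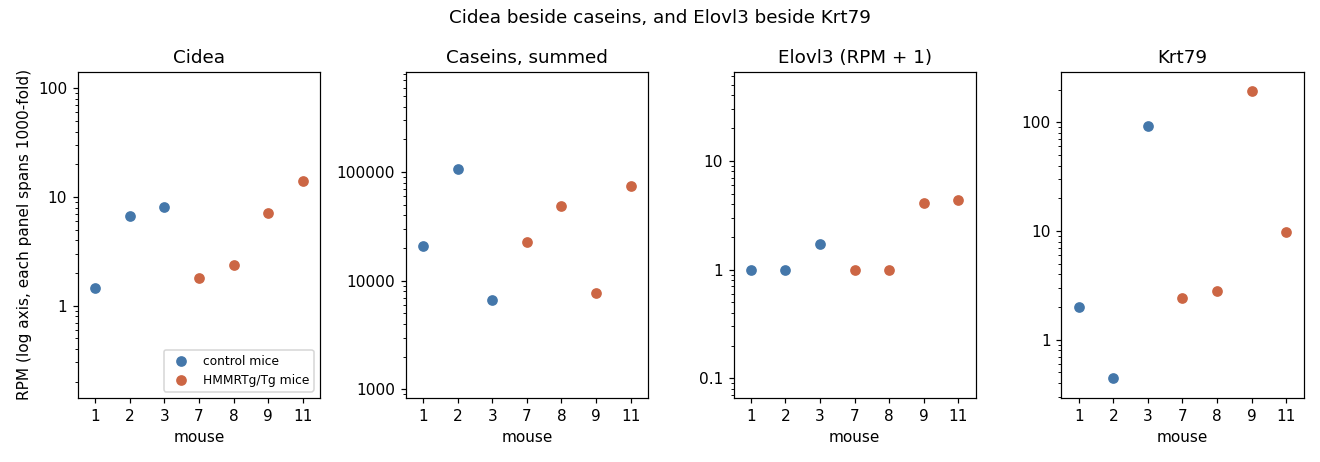
Level in RPM of Cidea, of the 5 caseins summed, of Elovl3 (with 1 RPM added so that 0 can be drawn) and of Krt79 in each mouse, on log axes that each span 1000-fold. Points are single mice, blue for control and orange for HMMRTg/Tg. Mice 3 and 9 have the lowest casein sums and high Cidea levels, and the 3 mice with Elovl3 reads (3, 9 and 11) have the highest Krt79 levels.

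Cox8b and Cox7a1 encode the forms of cytochrome c oxidase subunits 8 and 7a made in muscle and brown fat, whose counterparts in most tissues are Cox8a and Cox7a2. Cox6a2, the third such form, is best known from skeletal and heart muscle. Cox8b was read at 392, 417 and 324 RPM in control mice 1, 2 and 3, and at 88.5, 171, 473 and 702 RPM in HMMRTg/Tg mice 7, 8, 9 and 11, from 691 to 4194 reads. The control mice lay close together, and the HMMRTg/Tg mice lay on both sides of them, mice 7 and 8 below and mice 9 and 11 above. The mean was 378 ± 47.9 RPM (SD, n = 3) against 358 ± 282 RPM (SD, n = 4), with a log2 fold change of −0.49 (SE 0.58, limma adjusted p = 0.821). It was −0.14 in edgeR and −0.15 in DESeq2, and 0.03 without mouse 7.

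Cox7a1 was read at 3.07, 12.7 and 3.74 RPM in control mice 1, 2 and 3, and at 6.66, 4.17, 1.53 and 9.54 RPM in HMMRTg/Tg mice 7, 8, 9 and 11, from 12 to 115 reads. Control mouse 2 was the highest and mouse 9 the lowest, with the other mice of both groups between them. The mean was 6.50 ± 5.37 RPM (SD, n = 3) against 5.48 ± 3.42 RPM (SD, n = 4), with a log2 fold change of −0.17 (SE 0.56, limma adjusted p = 0.949). Without control mouse 2 the value was 0.38, and without mouse 9 it was 0.22.

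Muscle RNA separated the groups, and Cox8b and Cox7a1 did not. The 25 muscle markers on the panel summed to 4274, 13340 and 2232 RPM in control mice 1, 2 and 3, and to 95.3, 174, 129 and 65.3 RPM in HMMRTg/Tg mice 7, 8, 9 and 11. Every control mouse was above every HMMRTg/Tg mouse. Of the 23 markers tested, 19 were lower in the HMMRTg/Tg mice (limma, adjusted p under 0.05), beside 0.367% of all genes. The median log2 fold change of the 23 was −5.15, and Cacna1s and Mybpc2 had 0 reads in all 4 HMMRTg/Tg mice. Among the markers tested Ckm, the muscle creatine kinase, fell by 6.42 on the log2 scale (limma adjusted p = 0.00071). Actn3, the α-actinin of fast fibers, fell by 6.31 (limma adjusted p = 0.000463). Of 9 genes of slow and oxidative muscle on the panel, 6 were tested, with a median of −3.92. Of these 2 were lower, Ckmt2 and Cox6a2, beside 0.367% of all genes. Of the 23 muscle markers 12 were called lower without control mouse 1 or with a pseudocount of 10, 14 to 18 without any other mouse, and 0 without the filter on low values, and of the slow muscle genes 1 was called without mouse 7, 8, 11 or control mouse 3, 0 with a pseudocount of 10 or without the filter, and 4 in DESeq2.

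Cox6a2, already counted among the slow and oxidative muscle genes, went with the muscle markers. It was read at 40.1, 239 and 35.8 RPM in control mice 1, 2 and 3, and at 1.15, 1.28, 1.79 and 0.837 RPM in HMMRTg/Tg mice 7, 8, 9 and 11. The groups were far apart, with 222 to 2166 reads a control mouse and 5 to 14 an HMMRTg/Tg mouse. It fell by 4.99 on the log2 scale (SE 0.58, limma adjusted p = 0.00376), and the adjusted p was 0.0699 with a pseudocount of 10 and 0.200 without the filter. For each 1000 RPM of summed muscle markers there were 9.39, 17.9 and 16.0 RPM of Cox6a2 in control mice 1, 2 and 3, and 12.1, 7.39, 13.8 and 12.8 RPM in HMMRTg/Tg mice 7, 8, 9 and 11, so that the ranges overlapped.

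The same measure did not hold level for the other subunits. For each 1000 RPM of muscle markers there were 91.7, 31.2 and 145 RPM of Cox8b in control mice 1, 2 and 3, and 929, 983, 3652 and 10754 RPM in HMMRTg/Tg mice 7, 8, 9 and 11. For Cox7a1 there were 0.719, 0.952 and 1.68 RPM in the control mice in that order, and 69.9, 24.0, 11.9 and 146 RPM in the HMMRTg/Tg mice. Control mouse 2, with the most muscle RNA, had the highest Cox7a1 level, but its Cox8b level was close to those of the other control mice. Mouse 11, with the lowest muscle sum of the 7, had the highest Cox8b level and the second highest Cox7a1 level. Muscle RNA was lower in the HMMRTg/Tg mice but still read there, unevenly over the markers. Myl1, a myosin light chain, was at 19.9 to 40.2 RPM and Pygm, the muscle glycogen phosphorylase, at 11.0 to 21.4 RPM. Ckm, at 0 to 2.03 RPM, and Actn3, at 0.837 to 3.42 RPM, were close to 0 in these mice. The muscle sums of the HMMRTg/Tg mice thus rest in good part on few markers. In mouse 11 Myl1 gave 19.9 and Pygm 15.1 of 65.3 RPM. What share of the Cox8b and Cox7a1 reads came from muscle was not tested in either group.

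**Figure D3:**
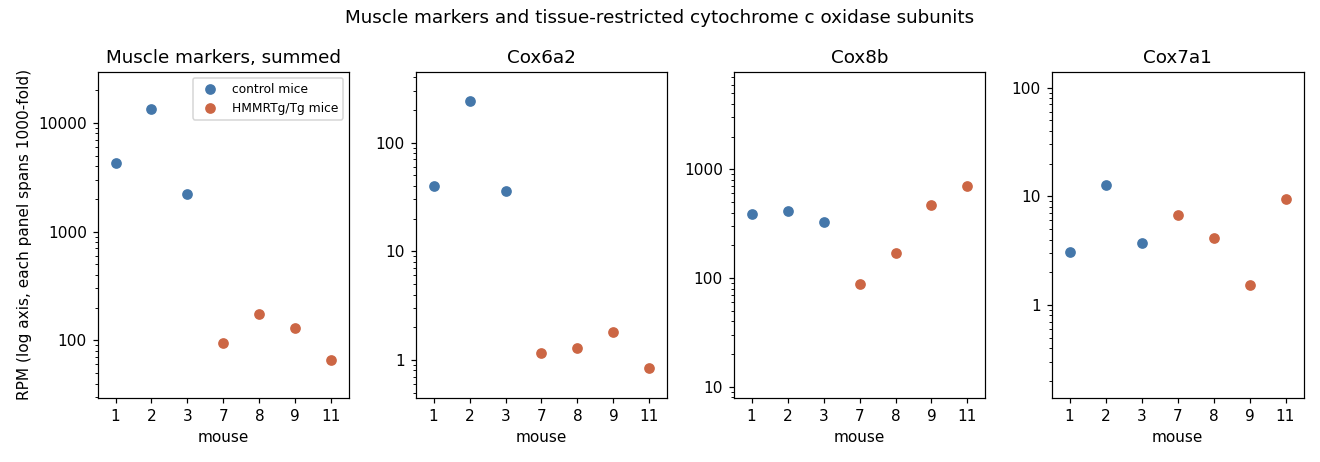
Level in RPM of the skeletal muscle markers summed, of Cox6a2, of Cox8b and of Cox7a1 in each mouse, on log axes that each span 1000-fold. Points are single mice, blue for control and orange for HMMRTg/Tg. The muscle sum and Cox6a2 separate the groups, whereas Cox8b (88.5 to 702 RPM in HMMRTg/Tg mice, 324 to 417 RPM in control mice) and Cox7a1 do not.

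Setting each restricted subunit against its ubiquitous counterpart within a library gave 3 pairs, compared as log2 ratios of RPM + 1 with an exact two-sided permutation test over the 35 splits of the mice. The smallest p this design allows is 0.0571. The Cox8b to Cox8a ratio averaged 3.97 ± 0.54 (SD, n = 3) in the control group against 3.49 ± 1.00 (SD, n = 4), a difference of −0.49 (exact permutation p = 0.514, adjusted over the 3 pairs 0.771). The Cox6a2 to Cox6a1 ratio averaged −2.99 ± 1.49 (SD, n = 3) and −8.30 ± 0.15 (SD, n = 4), a difference of −5.31 without overlap (exact permutation p = 0.0571, adjusted 0.171). The Cox7a1 to Cox7a2 ratio differed by −0.59 (exact permutation p = 0.857, adjusted 0.857). Cox7a2 itself stood at 75.9 to 113 RPM in 5 mice but at 1.40 RPM in control mouse 3 and 0.642 RPM in mouse 8, so that this ratio rests on an amplicon nearly unread in those libraries, and without both mice the difference was −0.50. The 23 ubiquitous respiratory chain genes on the panel summed to 2485 to 4154 RPM. Of the 22 tested 0 were called and the median log2 fold change was 0.24 (limma). At an unadjusted p under 0.05, 1 was higher, beside 6.49% of all genes. Cox8a was read at 17.3 to 31.8 RPM in the 7 mice, with a log2 fold change of 0.00 (limma adjusted p = 0.997).

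Other genes of brown and beige fat were read from lists of the brown lineage, of beige fat and of the thermogenic program, which together hold 46 genes on the panel, 39 of them tested. None was called in either direction with limma. Before adjustment 2 were higher (Acot11 and Ppara) and 1 lower (Zic1) at a limma p under 0.05, beside 6.49% and 3.22% of all genes. The groups did not overlap for 2 higher (Acot11 and Pank1) and 1 lower (Zic1), beside 6.52% and 3.34% of all genes. The median log2 fold change was 0.01, with 20 of the 39 positive, beside 0.11 over all genes tested. With edgeR and DESeq2 0 were higher, and DESeq2 called 1 lower, Zic1, where it called 187 lower among all genes.

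Among 8 tested genes of the brown lineage the median log2 fold change was −0.18. Zic1, a transcription factor of the somite-derived lineage that gives classical brown fat, and also expressed in nervous tissue, was read at 4.52, 10.2 and 4.68 RPM in control mice 1, 2 and 3, and at 0, 0.428, 1.15 and 0.837 RPM in HMMRTg/Tg mice 7, 8, 9 and 11. All HMMRTg/Tg mice were below all control mice, with at most 9 reads. The limma log2 fold change was −2.19 (SE 0.41, adjusted p = 0.0554), and it passed the threshold with TMM factors (0.0468), array weights (0.0337) and DESeq2 (0.000368) but not in edgeR (0.121). Mouse 11, which held nearly all the Ucp1 reads, had 5 reads of Zic1 and 2 of Lhx8, the lowest Lhx8 level of the 7. Lhx8, another transcription factor linked to classical brown fat, was read at 6.69, 4.31 and 8.54 RPM in control mice 1, 2 and 3, and at 3.84, 2.14, 8.70 and 0.335 RPM in HMMRTg/Tg mice 7, 8, 9 and 11. Ebf2, which marks committed brown and beige precursors, did not separate the mice in either way, with 2.43 to 5.06 RPM in control and 2.31 to 8.18 RPM in HMMRTg/Tg mice. Pank1, a kinase of coenzyme A synthesis, was at 7.18 to 7.77 RPM in control and 8.44 to 12.1 RPM in HMMRTg/Tg mice (limma log2 fold change 0.37, adjusted p = 0.704).

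Of 9 tested beige fat genes 0 passed a p under 0.05 and the median log2 fold change was −0.39. Tmem26, a surface marker of beige cells, had the lowest p of them, with 4.09 to 8.30 RPM in control and 2.56 to 4.09 RPM in HMMRTg/Tg mice, the ranges just meeting (limma log2 fold change −0.76, adjusted p = 0.517). Tbx1, another beige marker, was lowest in mouse 11 at 2.01 RPM and lay between 4.86 and 18.4 RPM elsewhere. Car4 was highest in mouse 9 at 300.2 RPM, against 34.7 to 71.6 RPM in the other 6 mice. Mouse 11, the mouse highest for Ucp1, was the highest for 1 of the 9 tested beige genes, Klhl13 at 28.4 RPM against 15.3 to 25.4 RPM elsewhere. Mouse 3 was the highest for 5 and mouse 9 for 2.

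The thermogenic list gave 22 tested genes, 15 with a positive log2 fold change and a median of 0.12. Acot11, an acyl-CoA thioesterase induced by cold in brown fat, was read at 2.17, 0.994 and 2.92 RPM in control mice 1, 2 and 3, and at 5.51, 5.24, 5.24 and 10.7 RPM in HMMRTg/Tg mice 7, 8, 9 and 11 (limma log2 fold change 1.34, SE 0.39, adjusted p = 0.272). Ppara, the nuclear receptor for fatty acid oxidation, was read at 2.35, 1.33 and 3.28 RPM among control mice and at 6.66, 2.57, 5.24 and 9.04 RPM in the HMMRTg/Tg mice in the same order, with mouse 8 within the control range (limma log2 fold change 1.00, adjusted p = 0.471). Mouse 11 was the highest for both. It was the highest for 5 of the 22 genes, mouse 9 for 7 and mouse 3 for 6, where they were the highest for 8.91%, 18.1% and 20.7% of all genes.

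Of the receptors, transporters and channels of the thermogenic list, some were read in all mice, and the receptor Gpr3 had 0 to 2 reads a mouse. Adrb3, the β3-adrenergic receptor of fat cells, was at 184, 89.4 and 362 RPM in control mice 1, 2 and 3 and at 104, 157, 478 and 212 RPM in HMMRTg/Tg mice 7, 8, 9 and 11. Its order followed neither Ucp1 nor genotype (limma log2 fold change 0.15, adjusted p = 0.951). Slc36a2, an amino acid transporter of the fat cell surface, was read at 91.5, 67.8 and 160 RPM among control mice and at 162, 76.7, 266 and 257 RPM in the HMMRTg/Tg mice in the same order, highest in mice 9 and 11 (limma log2 fold change 0.77, adjusted p = 0.603). Otop1, a proton channel of brown fat, had 19 reads in mouse 11 (3.18 RPM) and at most 10 in any other mouse, and was not tested. Ucp3, the relative of Ucp1 in muscle and brown fat, was read at 16.3, 30.4 and 14.0 RPM among control mice and at 10.9, 8.45, 26.6 and 52.7 RPM in the HMMRTg/Tg mice, again highest in mouse 11 and overlapping between groups (limma log2 fold change 0.01, adjusted p = 0.999). Ucp2, the relative found in many tissues and immune cells, was at 3563 to 4694 RPM in control and 2171 to 3594 RPM in HMMRTg/Tg mice (limma log2 fold change −0.60, adjusted p = 0.538).

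**Figure D4:**
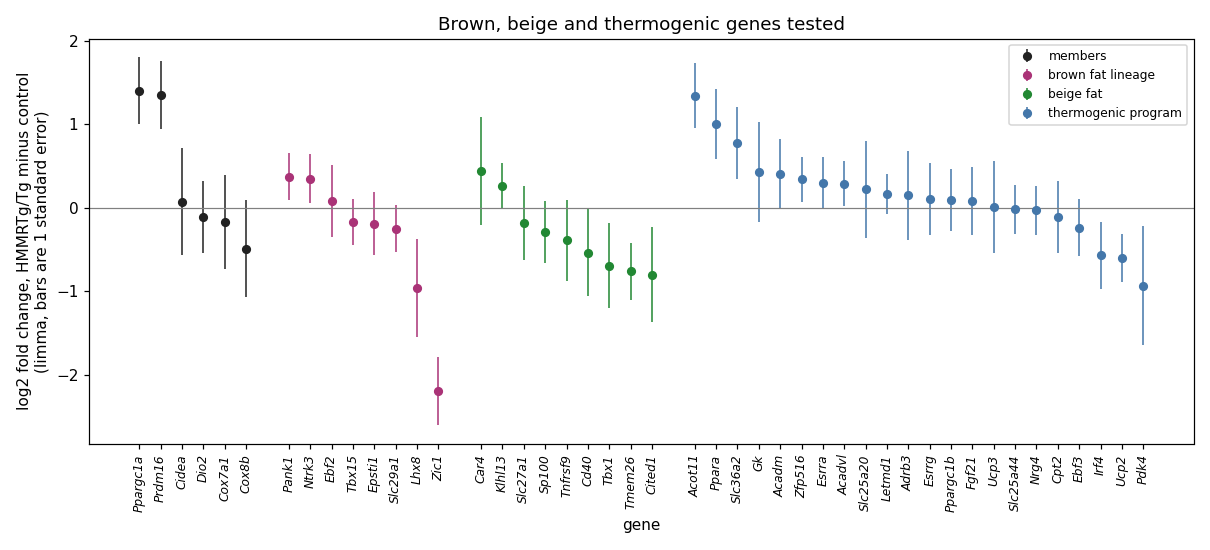
Log2 fold change (HMMRTg/Tg minus control, on log2(RPM + 1)) of the 6 tested genes and of the tested genes of the brown lineage, beige and thermogenic lists, with bars of 1 standard error from limma, n = 3 control and 4 HMMRTg/Tg mice. Ppargc1a (1.40), Prdm16 (1.35) and Acot11 (1.34) are the highest and Zic1 (−2.19) the lowest, and none passed an adjusted p under 0.05.

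White fat RNA was present in all 7 mice. The 19 white adipocyte genes summed to 13867, 8095 and 14827 RPM in control mice 1, 2 and 3, and to 12484, 9443, 23824 and 14094 RPM in HMMRTg/Tg mice 7, 8, 9 and 11. Mouse 9 was the highest, and mouse 11 lay within the control range. Of the 19 genes 0 were called, with a median of 0.30. Lpl, the lipoprotein lipase, was the 1 gene higher at a p under 0.05, beside 6.49% of all genes (limma log2 fold change 1.03, adjusted p = 0.366). Luminal and basal epithelial genes had a median of 0.42, with 0 of 10 called. Of these 10, 2, Epcam and Cldn3, were higher at a p under 0.05 (6.49% of all genes). The same 2 were higher without overlap between groups (6.52% of all genes). Single genes of these lists had larger values that were not called, with a limma log2 fold change of 1.07 for Dgat2, 0.99 for Cldn3 and 0.78 for Epcam. The part of cell content in the levels of Ppargc1a and Prdm16 was not tested.

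Across the 7 mice, the patterns most like each gene were looked for among 8955 other genes of higher level (mean log2(RPM + 1) of at least 3), as Pearson correlations given without a p. The points share their libraries, and the values are descriptions. Each is the highest of many genes over 7 mice only, and every one of the 8 genes had a nearest r of 0.96 to 1.00. A high r here therefore does not set a pair apart. Cox8b was nearest to Spp1, which encodes osteopontin (r = 0.99), read at 215, 263 and 149 RPM in control mice 1, 2 and 3 and at 51.1, 103, 288 and 405 RPM in HMMRTg/Tg mice 7, 8, 9 and 11. Both were lowest in mouse 7 and highest in mouse 11. Ucp1 was nearest to Nudt16l1 and Sdhc (both r = 0.96), a likeness set by mouse 11 alone, in which Sdhc, a subunit of succinate dehydrogenase, was at 406 RPM against 253 to 291 RPM elsewhere. Elovl3 was nearest to Magix (r = 0.99) and Tmie (r = 0.98), both highest in mice 9 and 11. Ppargc1a was nearest to Gabarapl1 (r = 0.99), an autophagy gene read at 119 to 149 RPM in control and 162 to 280 RPM in HMMRTg/Tg mice. Prdm16 was nearest to Map2k2 and Uba1 (both r = 0.99), Cidea to D3Ertd751e (r = 0.96), Dio2 to Tmem41a (r = 1.00) and Cox7a1 to Rfk (r = 0.99). No gene was among the 3 nearest of more than 1 of the 8.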

How the data were processed

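RNA of paraffin sections was extracted with an FFPE kit and read with the Ion AmpliSeq mouse transcriptome panel on an Ion Torrent S5, 1 library a mouse. The authors ran the AmpliSeqRNA plug-in, whose version is not given in the sources used here, and deposited 1 RPM value per amplicon and mouse, named TPM. They are taken as RPM here, since each library sums to 1e6 and 100% of values under 1000 reads were whole reads within 0.05. The submitters' processing notes name mm10 and Transcriptome Analysis Console. Groups and mouse numbers came from the sample titles. Symbols of 27 amplicons turned into dates by a spreadsheet were restored. Reads of mice of 1 group differed far beyond sampling noise, with a chi-square of 25.7 to 129.6 per degree of freedom.

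The log2(RPM + 1) values of genes that reached 1 RPM in 3 or more mice entered limma 3.58.1 (R 4.3.3), with genotype as the sole term and a trended eBayes step. Alternatives were pseudocounts of 0.1 and 10, no filter or one of 5 RPM, array weights, an untrended eBayes step, TMM factors, quantile normalization, each mouse left out, and, on the recovered reads, edgeR 4.0.16 and DESeq2 1.42.0. DESeq2 gave no adjusted p for 277 genes. Of all genes, limma called 5 higher and 48 lower, edgeR 4 and 65, and DESeq2 79 and 187. Of the methods, limma alone was tested on simulated data, with 200 of 13080 genes changed in each of 10 runs. The changed genes were drawn from those with a mean of at least 5 RPM. There limma recovered 16.2% of the 2-fold and 83.6% of the 4-fold changes, with a mean of 9.4 false calls a run. Intervals of reads are exact Poisson and cover counting error only. Named were the 8 genes, the subunit pairs, the Cide family, for each list up to 4 genes of lowest p and 3 of highest mean, and the genes most like each member, from which the text takes those that bear on it. Hmmr, Krt79, Scd3 and further genes of the fat lists were named after their values were seen, although the rule above also names Krt79 and Scd3. The 8 genes and the lists were chosen with earlier results of these data known. Acot2, Cpt1b, Kcnk3 and Fabp3 of the fat lists, Nnat, Tnnc2, Myh7, Cycs and Cox7c were not analysed here.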

Additional observations from a re-analysis of the deposited data

Results flagged for a closer look

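The level of Ucp1 in HMMRTg/Tg mouse 11, 58.229 RPM, lay far from those of the other mice of its group, at 0, 0 and 0.128 RPM. Its gap to the nearest mouse was 0.998 of the group's whole range, where Dixon's 95% critical value for 4 samples is 0.829. The 8 genes and the main genes set beside them, 12 in all, were examined in the HMMRTg/Tg mice. About 1 in 20 groups is singled out by chance where values are normally distributed. That rate was not tested for RPM values with several at or near 0, as for Ucp1. The mouse had 348 reads of Ucp1, so that counting error is small beside the gap. The group of 3 control mice was too small for this rule.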

How the results depend on the processing

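The count of the 8 genes called higher was 0 with limma under each alternative and with edgeR, and 1 with DESeq2 (Ppargc1a), and the count called lower was 0 under every alternative. Among the brown, beige and thermogenic lists 1 gene, Zic1, was called lower with TMM factors, array weights and DESeq2, and 0 under the other settings. Ppargc1a (1.10 to 1.69) and Prdm16 (0.84 to 1.66) kept a positive log2 fold change when each mouse was left out. The sign turned for Cidea (−0.52 to 0.43, and −0.48 with array weights), Dio2 (−0.42 to 0.21), Cox8b (−0.96 to 0.03) and Cox7a1 (−0.50 to 0.38). The log2 ratio of Cox7a1 to Cox7a2 differed by −2.02 to 0.93 when each mouse was left out, and without mice 3 and 8, a setting chosen after seeing the data, by −0.50. The median of the beige list was −0.82 in edgeR, −0.84 in DESeq2 and −0.88 to 0.07 without single mice. The median of the muscle list was −6.70 and −3.56 with pseudocounts of 0.1 and 10, −6.80 in edgeR and −6.99 in DESeq2, and that of slow and oxidative muscle −5.75, −1.72, −6.70 and −6.77. The cause of these differences was not tested. The median over all genes, 0.11, was lower by 0.12 in DESeq2, 0.10 in edgeR and 0.11 without the filter, where more genes of low level enter. No paired analysis was possible because the groups share no mouse number. Ucp1, Elovl3 and Dio2 rest on few or no reads in most mice, so that differences below the level of 3 reads were not detectable at this depth.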
